A study of Mus musculus with 2 samples.

Results

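Cd14 and 9 Toll-like receptor genes (Tlr1, Tlr2, Tlr3, Tlr4, Tlr5, Tlr6, Tlr7, Tlr9 and Tlr13) were read across the cell classes of denervated mouse muscle. They were taken as a list of gene names and make up 10 of the 32287 features of the matrix; all 10 were found. Hind limb muscle (tibialis anterior and gastrocnemius) came from wild-type S100GFPtg mice, males of about 2 months by the series description, taken 7 days after crush of the sciatic nerve. In these mice the S100B promoter drives green fluorescent protein, and viable fluorescent cells (GFP+) were sorted and sequenced as 1 droplet library with unique molecular identifiers (UMIs). The series text names a single crushed animal while the methods describe pooled males, so the number of animals is not certain, and no uninjured library was used here. Counts of the GFP- library of the same muscle were not analysed here. With 1 library there is no replicate, and no difference below was tested: intervals are exact 95% intervals for counting error only, and they do not cover differences between animals or between cells.

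Toll-like receptors are membrane proteins that recognize conserved molecules of microbes and, in injured tissue, some released host molecules. Tlr1, Tlr2, Tlr4, Tlr5 and Tlr6 act at the cell surface, whereas Tlr3, Tlr7, Tlr9 and Tlr13 read nucleic acids inside endosomes. Cd14 is a surface protein that hands lipopolysaccharide and lipopeptides to Tlr4 and Tlr2. Signals pass through the adaptors Myd88 and Ticam1 to NF-kappaB and interferon regulatory factors, and macrophages are the best known carriers of the family.

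The library held 36400 barcodes with a median of 2130 UMIs, of which 8894 (24.4%) had at least 5000 UMIs and 8742 of those had less than 10% mitochondrial UMIs. Marker gates placed 6099 of these in the myeloid lineage, 1671 in the stromal lineage and 69 among Schwann cells, although the sort was for a Schwann cell reporter. The 454 barcodes that passed the gates of more than 1 lineage were left out. Subsets are called by their leading marker genes, and none of the 10 genes was used in a gate. Of all barcode sequences, 372 were also on the list of the GFP- library (1.02%).

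The receptors and Cd14 were mostly myeloid. In myeloid barcodes, Cd14 stood at 1363 CPM (the UMIs of a gene per 1000000 UMIs of the class), Tlr2 at 205 CPM, Tlr7 at 116 CPM, Tlr4 at 45.9 CPM and Tlr13 at 37.6 CPM. Tlr1 (17.0 CPM), Tlr3 (13.7 CPM), Tlr5 (8.28 CPM), Tlr6 (7.26 CPM) and Tlr9 (2.84 CPM) were sparser, and these levels are not compared between genes because a 3' tag count depends on the transcript. All 10 genes passed the minimum of 20 UMIs over both lineages together, and 8 of the 10 were at least 4-fold higher in myeloid than in stromal barcodes, where 11.4% of the 17951 genes so tested were. None of the 10 was 4-fold higher in stromal barcodes, where 18.7% of genes were. The median log2 ratio of myeloid to stromal CPM was 4.62 over the 10 genes and -0.16 over all genes tested. Tlr3 and Tlr4 were the exceptions, with log2 ratios of 0.61 (interval 0.40 to 0.82) and -0.64 (-0.72 to -0.56). The direction for Tlr3 rested on 1 class: 570 of its 1063 myeloid UMIs lay in the 217 Xcr1 Clec9a dendritic cells, and without that class, a setting added after the data were seen, Tlr3 stood at 6.72 CPM in myeloid and 8.997 CPM in stromal barcodes, a log2 ratio of -0.42 (-0.65 to -0.19).

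**Figure D1:**
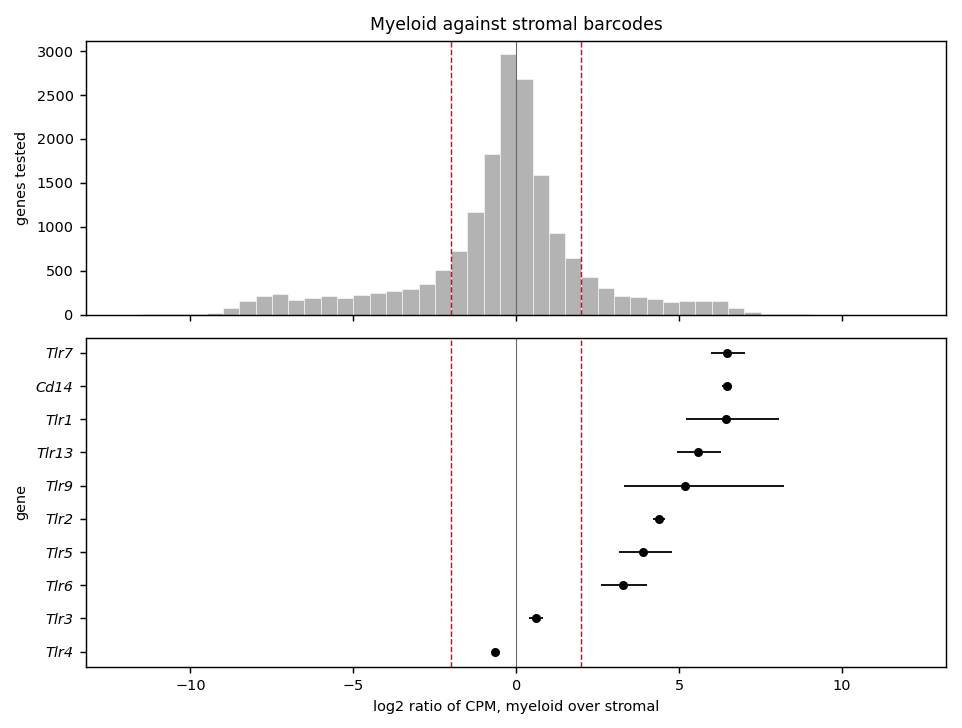
Upper panel, number of genes (y axis) by log2 ratio of CPM in myeloid over stromal barcodes (x axis) for the 17951 genes tested; lower panel, the same ratio for each of the 10 genes with its 95% interval for counting error, dashed lines marking 4-fold. The points of 8 genes lie to the right of 4-fold, and those of Tlr3 and Tlr4 lie between the lines.

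Part of the stromal signal was no larger than that of genes taken to mark myeloid cells. Over 17 myeloid and macrophage markers, the stromal level was a median 1.16% of the myeloid level. Cd14 (1.14%), Tlr1 (1.17%) and Tlr7 (1.13%) lay at that median, Tlr13 (2.11%) and Tlr9 (2.79%, from 2 stromal UMIs) lay slightly above it, and Tlr2 (4.78%), Tlr5 (6.70%) and Tlr6 (10.4%) lay further up. Tlr3 (65.5%, and 134% without Xcr1 Clec9a cells) and Tlr4 (156%) were the highest of the 10 genes. In the 982 stromal barcodes with no UMI of the 8 myeloid lineage markers, a set chosen after the data were seen, the log2 ratio of myeloid to stromal CPM was 7.80 for Cd14 and 8.76 for Tlr7, against 6.46 and 6.47 over all stromal barcodes. The 982 barcodes were picked by their lack of myeloid marker UMIs, so a rise was likely beforehand, and no conclusion is drawn from it. With gates raised for every lineage, which admitted more mixed barcodes, the Cd14 and Tlr7 ratios were 5.69 and 5.51.

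**Figure D2:**
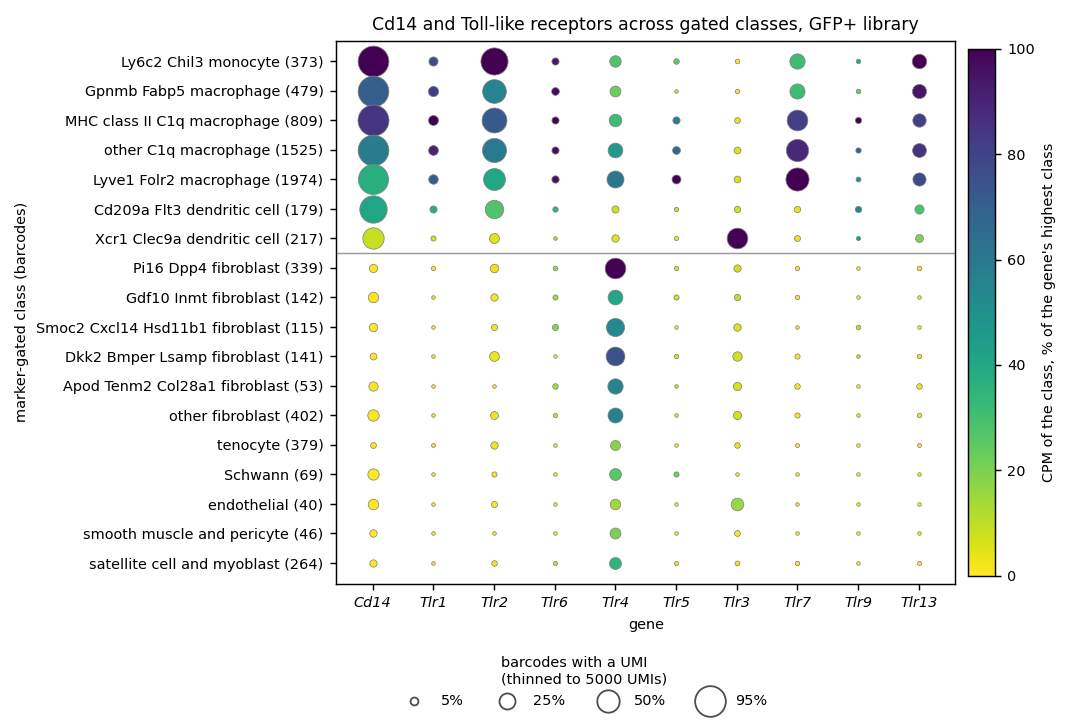
Each gene (x axis) in each gated class (y axis, number of barcodes in brackets); colour gives the class CPM as a percent of the gene's highest class shown, and dot area the percent of barcodes with a UMI after each barcode was thinned to 5000 UMIs. The line divides myeloid classes (above) from the others, and the 19 barcodes of Ccr7 Fscn1 dendritic cells are not shown. Tlr4 is darkest in Pi16 Dpp4 fibroblasts (116 CPM) and Tlr3 in Xcr1 Clec9a dendritic cells (140.4 CPM), while the other 8 genes are darkest in monocytes or macrophages.

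Upstream sequence was at hand for 7 of the 10 genes (RefSeq, GRCm38.p6), all but Tlr4, Tlr7 and Cd14. Tlr9 and Tlr13, both at least 4-fold higher in myeloid barcodes, are shown with the 250 bases before the annotated start. Capitals mark GAGGAA, a core bound by PU.1 and other ETS factors. It was found on either strand in 23.3% of all 32851 upstream windows of that length. Of the 7 genes, 3 (Tlr1, Tlr9 and Tlr13) held it in at least 1 window. Tlr1 and Tlr6 had more than 1 window, and another Tlr1 window lacked it, so genes and windows are unlike units. Tlr2, Tlr5 and Tlr6, also at least 4-fold higher in myeloid barcodes, had no GAGGAA. Tlr9 is given on the plus strand of chr9:106222348-106222597, and Tlr13 on the plus strand of chrX:106143025-106143274.
Tlr9: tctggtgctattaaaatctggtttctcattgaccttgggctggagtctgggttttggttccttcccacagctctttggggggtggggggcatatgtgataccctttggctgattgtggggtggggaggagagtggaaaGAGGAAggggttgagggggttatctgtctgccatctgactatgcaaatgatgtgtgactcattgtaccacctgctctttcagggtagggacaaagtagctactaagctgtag
Tlr13: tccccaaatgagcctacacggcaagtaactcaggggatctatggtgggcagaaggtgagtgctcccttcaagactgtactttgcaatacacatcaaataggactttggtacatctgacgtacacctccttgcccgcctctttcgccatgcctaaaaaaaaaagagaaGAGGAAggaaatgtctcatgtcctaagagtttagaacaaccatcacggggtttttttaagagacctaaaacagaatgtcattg
GAGGAA ended 106 bases before the start in Tlr9 and 77 bases before it in Tlr13. For Tlr1, Tlr2 and Tlr3, whose windows reach into a longer annotated transcript, only 30 bases around 1 motif are shown: GAGGAA in Tlr1 (minus strand of chr5:64933564-64933593), an NF-kappaB type site in Tlr2 (minus strand of chr3:83841762-83841791), and AANNGAAA, an interferon regulatory factor type site read here on the other strand, in Tlr3 (minus strand of chr8:45410421-45410450).
Tlr1: aattaaatgttgGAGGAAgtaggagcttga
Tlr2: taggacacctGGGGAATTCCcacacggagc
Tlr3: aagtgaatggcTTTCACTTtgtttagacac
Of all upstream windows, 4.65% held the NF-kappaB type site and 21.3% held AANNGAAA. Among the 7 genes, the NF-kappaB type site lay in windows of Tlr2, Tlr3 and Tlr6. AANNGAAA lay in windows of Tlr1, Tlr2, Tlr3 and Tlr6, so those of Tlr2 and Tlr3 held both motifs. These matches are letters only, picked after the sequences had been read, and binding was not measured.

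Cd14 (chromosome 18) differed between the classes of the myeloid lineage. It stood at 2473 CPM (interval 2424 to 2522) in Ly6c2 Chil3 monocytes, 2091 CPM in MHC class II C1q macrophages, 1744 CPM in Gpnmb Fabp5 macrophages, 1443 CPM in other C1q macrophages and 913 CPM (901 to 925) in Lyve1 Folr2 macrophages, whose markers are those of tissue-resident macrophages. Each of these neighbours differed beyond counting error. Dendritic cells, which carry antigen to T cells, were split: Cd14 stood at 1009 CPM in Cd209a Flt3 cells and at 218 CPM in Xcr1 Clec9a cells. After thinning to 5000 UMIs, 95.4% of monocytes, 91.4% of Lyve1 Folr2 macrophages, 75.4% of Cd209a Flt3 cells and 45.2% of Xcr1 Clec9a cells had a Cd14 UMI, against 6.64% of stromal barcodes; the unthinned shares were 96.2%, 97.7%, 82.7%, 64.5% and 14.1%. The median thinned barcode held 11 Cd14 UMIs in monocytes and 3 in Lyve1 Folr2 macrophages. In the 19 Ccr7 Fscn1 dendritic cells, 1 barcode held 73.8% of the Cd14 UMIs, and no comparison between classes rests on that class. Outside the myeloid lineage Cd14 stood between 6.49 and 24.2 CPM in every class, and 19.2 CPM in endothelial and 17.3 CPM in Schwann barcodes could not be told apart from the neighbouring fibroblast classes.

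Tlr2 (chr3:83836272-83841824), which pairs with Tlr1 or Tlr6 to read bacterial lipopeptides, had nearly the same order. Its level was 394 CPM (interval 375 to 414) in monocytes, 286 CPM in MHC class II C1q macrophages, 233 CPM in other C1q macrophages, 216 CPM in Gpnmb Fabp5 macrophages and 159 CPM (154 to 164) in Lyve1 Folr2 macrophages. Cd209a Flt3 dendritic cells had 109 CPM and Xcr1 Clec9a dendritic cells 19.5 CPM. Monocytes were 2.71-fold above Lyve1 Folr2 macrophages in Cd14 and 2.47-fold above them in Tlr2, and these were the only 2 of the 10 genes at least 2-fold higher in monocytes in that pair, where 8.36% of 13774 genes were. Among stromal classes Tlr2 stood at 13.5 CPM in Pi16 Dpp4 fibroblasts, 11.6 CPM in Dkk2 Bmper Lsamp fibroblasts, 10.3 CPM in tenocytes and 3.61 CPM in Smoc2 Cxcl14 Hsd11b1 fibroblasts. A Tlr2 UMI was present in 6.19% of thinned Pi16 Dpp4 fibroblasts and in 1.89% of thinned satellite cells and myoblasts, at median depths of 18758 and 9227 UMIs before thinning (unthinned 20.6% and 3.41%).

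The partners of Tlr2 did not share its difference between monocytes and Lyve1 Folr2 macrophages. Tlr1 (chr5:64924680-64933600) ranged only from 16.2 CPM in Lyve1 Folr2 macrophages to 22.7 CPM in MHC class II C1q macrophages over the monocyte and macrophage classes, and no neighbours in that order differed beyond counting error. The ends did, with a log2 ratio of 0.48 (0.23 to 0.74), against 0.84 (0.77 to 0.92) for Tlr2 in the same pair. Tlr6 (chr5:64953092-64970942) stood between 7.72 and 8.25 CPM in all 5 of these classes. Both were lower in the Cd209a Flt3 and Xcr1 Clec9a dendritic classes: Tlr1 had 8.57 CPM in Cd209a Flt3 cells and 1.48 CPM in Xcr1 Clec9a cells, and Tlr6 had 2.86 and 0.99 CPM from 7 and 4 UMIs. The 19 Ccr7 Fscn1 cells had no Tlr1 UMI and 4 Tlr6 UMIs (15.2 CPM, interval 4.13 to 38.8). The log2 ratio of Xcr1 Clec9a to Cd209a Flt3 cells was -2.54 for Tlr1 and -2.48 for Tlr2. Monocyte to Lyve1 Folr2 macrophage log2 ratios were 0.09 (-0.30 to 0.46) for Tlr1 and -0.04 (-0.63 to 0.52) for Tlr6, against 1.31 (1.22 to 1.39) for Tlr2. Tlr1 and Tlr6 are near-copies in part of their sequence, with 289 of 3428 stretches of 90 bases from Tlr1 transcripts also present in Tlr6 (8.43%), and reads from there could not be assigned to either. That shared part ended at least 612 bases from the 3' end of Tlr1 transcripts and 2221 bases from that of Tlr6. Tlr6 is also overlapped on the same strand by the predicted gene Gm73098, and reads shared with it could not be assigned. In thinned myeloid barcodes Tlr2 and Tlr1 were both seen in 4.18%, against a product of their shares of 4.08%, and Tlr2 and Tlr6 in 2.18%, against 2.08%.

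Tlr4 (chr4:66827551-66846581), the receptor for lipopolysaccharide, had its highest level outside the myeloid lineage. Pi16 Dpp4 fibroblasts, whose markers are those of adventitial fibroblasts, had 116 CPM (interval 108 to 125), from 723 UMIs in 245 of 339 barcodes. Dkk2 Bmper Lsamp fibroblasts followed with 87.0 CPM (75.4 to 99.8). Lyve1 Folr2 macrophages had 70.2 CPM (66.9 to 73.5), and other fibroblasts with 65.0 CPM, Apod Tenm2 Col28a1 fibroblasts with 63.5 CPM and Smoc2 Cxcl14 Hsd11b1 fibroblasts with 61.3 CPM did not differ from their neighbours beyond counting error. Further down came other C1q macrophages (53.3 CPM), Gdf10 Inmt fibroblasts (46.6 CPM), satellite cells and myoblasts (40.8 CPM), MHC class II C1q macrophages (35.8 CPM), monocytes (31.9 CPM), Gpnmb Fabp5 macrophages (26.0 CPM) and tenocytes (21.3 CPM). Dendritic cells were lowest, at 8.16 CPM in Cd209a Flt3 and 5.42 CPM in Xcr1 Clec9a cells.

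Fibroblast classes were therefore not alike in Tlr4: the log2 ratio of Pi16 Dpp4 fibroblasts was 2.44 (2.14 to 2.76) over tenocytes, 0.92 (0.64 to 1.21) over Smoc2 Cxcl14 Hsd11b1 fibroblasts and 0.72 (0.60 to 0.85) over Lyve1 Folr2 macrophages. Of the 4 listed genes with at least 20 UMIs in Pi16 Dpp4 fibroblasts and tenocytes together, Tlr4 and Tlr3 (1.40) were at least 2-fold higher in the former, where 13.9% of 12857 genes were, and none was in the reverse direction, where 14.4% of genes were. After thinning, 42.5% of Pi16 Dpp4 fibroblasts, 28.1% of Lyve1 Folr2 macrophages, 12.1% of monocytes, 8.97% of tenocytes and 4.15% of Xcr1 Clec9a dendritic cells had a Tlr4 UMI (unthinned 72.3%, 50.9%, 25.2%, 15.3% and 8.76%). Cd14, the partner of Tlr4, was at 17.0 CPM in the same Pi16 Dpp4 fibroblasts, where myeloid lineage markers summed to 58.4 CPM and macrophage markers to 195 CPM, against 6210 and 12027 CPM in myeloid barcodes. The 7 genes of the monocyte list summed to 1173 CPM in Pi16 Dpp4 fibroblasts, above the 416 CPM of all myeloid barcodes and below the 4388 CPM of monocytes. The part of other cells in the Tlr4 level was not tested. The annotation places 2 predicted genes, Gm57137 and Gm68947, over Tlr4 on the same strand, and reads shared with them could not be assigned.

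**Figure D3:**
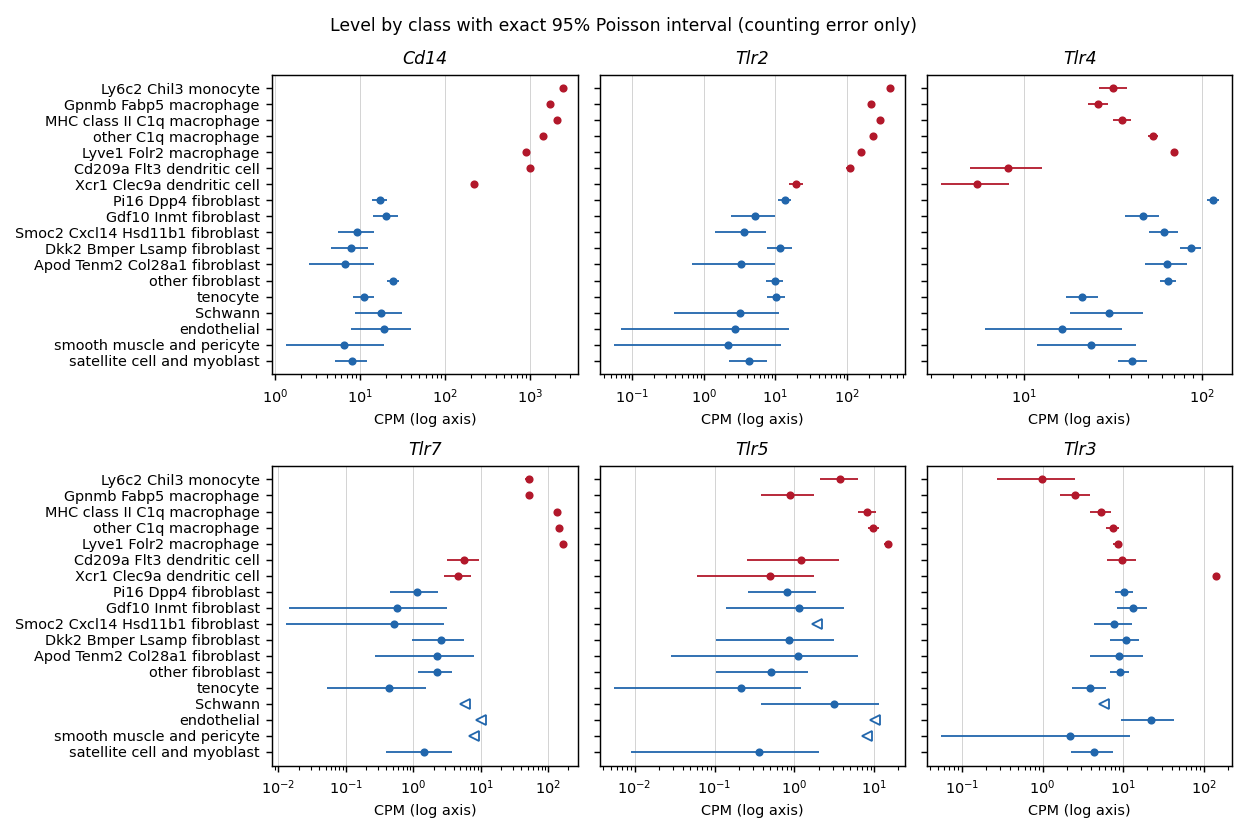
CPM (x axis, logarithmic) of Cd14, Tlr2, Tlr4, Tlr7, Tlr5 and Tlr3 in each gated class (y axis), with exact 95% Poisson intervals; red marks myeloid classes, blue the others, and an open triangle the upper limit of a class with no UMI. For Cd14 and Tlr2 every red point lies above every blue one, for Tlr4 the colours are mixed, and Tlr3 has 1 high point in Xcr1 Clec9a dendritic cells at 140.4 CPM.

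Tlr5 (chr1:182954752-182976044), the flagellin receptor, had its highest level in Lyve1 Folr2 macrophages with 14.6 CPM (interval 13.2 to 16.2). Other C1q macrophages had 9.69 CPM, MHC class II C1q macrophages 8.13 CPM, monocytes 3.74 CPM from 15 UMIs, and Gpnmb Fabp5 macrophages 0.89 CPM from 8 UMIs. Gpnmb Fabp5 macrophages, the deepest of these classes with a median of 17706 UMIs, were thus 16.4-fold below Lyve1 Folr2 macrophages, a log2 ratio of -4.04 (-5.26 to -3.04). A Tlr5 UMI was seen in 15.6% of Lyve1 Folr2 macrophages and in 7 of the 479 Gpnmb Fabp5 macrophages (1.46%), at their full depth. After thinning the Lyve1 Folr2 share was 6.84%, and no Gpnmb Fabp5 barcode kept a Tlr5 UMI.

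Of the endosomal receptors, Tlr3 (chr8:45395665-45411075), which reads double-stranded RNA, was concentrated in 1 dendritic class. Xcr1 Clec9a dendritic cells had 140.4 CPM (interval 129 to 152) from 570 UMIs, and 176 of the 217 barcodes had at least 1. Cd209a Flt3 dendritic cells had 9.79 CPM, a log2 ratio of 3.84 (3.25 to 4.50) between them, and 11 barcodes held its 24 UMIs. With stricter gates for both classes, a setting added after the data were seen, this log2 ratio was 6.59, and with gates raised for every lineage it was 4.97. Tlr3 was the only 1 of 7 listed genes with enough UMIs to be at least 4-fold higher in Xcr1 Clec9a cells, where 3.22% of 9873 genes were, while Cd14, Tlr1 and Tlr2 were at least 4-fold higher in Cd209a Flt3 cells, where 3.4% were. The 9 macrophage markers summed to 1373 CPM in Cd209a Flt3 and 384 CPM in Xcr1 Clec9a cells, and the 7 monocyte markers to 274 and 148 CPM, with Hp alone at 0 UMIs in the latter class; their part in these differences was not tested. Thinned shares were 42.4% and 2.79% (unthinned 81.1% and 6.15%).

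Elsewhere Tlr3 was low and more even between lineages. Fibroblast classes ranged from 7.73 CPM in Smoc2 Cxcl14 Hsd11b1 to 13.2 CPM in Gdf10 Inmt cells, Lyve1 Folr2 macrophages had 8.56 CPM, tenocytes 3.88 CPM and Gpnmb Fabp5 macrophages 2.56 CPM. Monocytes had 4 Tlr3 UMIs in 373 barcodes (1.00 CPM, interval 0.27 to 2.55), a log2 ratio of -3.10 (-4.99 to -1.72) to Lyve1 Folr2 macrophages. Endothelial barcodes had 21.9 CPM from 8 UMIs, which did not differ beyond counting error from Gdf10 Inmt fibroblasts, the next class in order.

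Tlr7 (chrX:167303380-167330574), a receptor for single-stranded RNA, was a macrophage gene in these data. Lyve1 Folr2 macrophages had 166 CPM (interval 161 to 172), other C1q macrophages 148 CPM, MHC class II C1q macrophages 136 CPM, Gpnmb Fabp5 macrophages 52.1 CPM and monocytes 51.6 CPM; the last pair did not differ beyond counting error. Dendritic cells had 5.71 CPM in the Cd209a Flt3 and 4.68 CPM in the Xcr1 Clec9a class, and stromal barcodes 1.31 CPM. A Tlr7 UMI was seen in 53.5% of thinned Lyve1 Folr2 macrophages, 22.5% of monocytes and 0.838% of stromal barcodes (unthinned 79.8%, 35.1% and 1.74%). Its neighbour on the X chromosome, Tlr8, which is not among the 10 genes, stood at 39.3 CPM in Lyve1 Folr2 macrophages and 23.2 CPM in monocytes, and shared no stretch of 90 bases with Tlr7.

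Tlr13 (chrX:106143275-106160493), which reads bacterial ribosomal RNA, was instead even. It stood at 49.6 CPM in monocytes, 46.8 CPM in Gpnmb Fabp5 macrophages, 42.4 CPM in other C1q macrophages, 39.9 CPM in MHC class II C1q macrophages and 38.1 CPM in Lyve1 Folr2 macrophages, and no neighbours among these differed beyond counting error. The ends did, with a monocyte to Lyve1 Folr2 macrophage log2 ratio of 0.38 (0.15 to 0.60). Dendritic cells had 14.3 CPM in the Cd209a Flt3 and 9.61 CPM in the Xcr1 Clec9a class. Tlr9 (chr9:106222598-106226876), the receptor for unmethylated CpG DNA, was sparse, with 220 UMIs over all myeloid barcodes. MHC class II C1q macrophages had 5.29 CPM (interval 3.83 to 7.13) and Lyve1 Folr2 macrophages 2.52 CPM (1.94 to 3.22), a log2 ratio of 1.07 (0.48 to 1.65). The other monocyte, macrophage and dendritic classes lay between 1.22 and 3.59 CPM, apart from the 19 Ccr7 Fscn1 cells. Those had 0 UMIs, where the limit of 3 counts is 11.4 CPM and the exact interval reaches 14.0 CPM. Stromal barcodes had 2 Tlr9 UMIs in all.

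Set against Lyve1 Folr2 macrophages, the monocytes thus had higher Cd14 and Tlr2, lower Tlr4, Tlr5, Tlr3 and Tlr7, and slightly higher Tlr13, while the intervals of the ratio included 0 for Tlr1, Tlr6 and Tlr9. Tlr4, Tlr5, Tlr3 and Tlr7, 4 of the 10 genes, were each at least 2-fold higher in Lyve1 Folr2 macrophages, where 29.6% of 13774 genes were, so that share is near the background. The log2 ratios were -1.14 for Tlr4, -1.97 for Tlr5, -3.10 for Tlr3 and -1.69 for Tlr7.

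**Figure D4:**
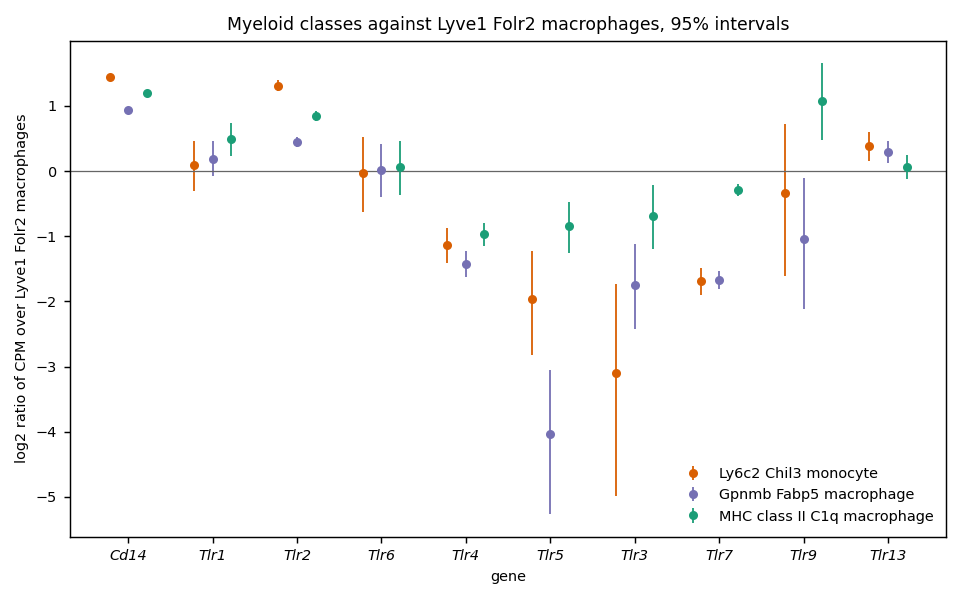
Log2 ratio of CPM over Lyve1 Folr2 macrophages (y axis) for each gene (x axis) in Ly6c2 Chil3 monocytes, Gpnmb Fabp5 macrophages and MHC class II C1q macrophages, with 95% intervals for counting error. The 3 classes lie above 0 for Cd14 and Tlr2 and below 0 for Tlr4, Tlr5, Tlr3 and Tlr7, with the lowest point for Tlr5 in Gpnmb Fabp5 macrophages (-4.04).

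Schwann cells carried few receptor UMIs at this depth. The 69 barcodes had a median of 8425 UMIs, and held 19 Tlr4 UMIs (30.0 CPM, interval 18.04 to 46.8), 11 Cd14 UMIs (17.3 CPM), 2 Tlr2 UMIs and 2 Tlr5 UMIs. No UMI of Tlr1, Tlr3, Tlr6, Tlr7, Tlr9 or Tlr13 was seen. For each, the limit of 3 counts is 4.73 CPM and the exact interval reaches 5.82 CPM. Tlr4 was lower than in all stromal barcodes together, with a log2 ratio of -1.26 (-1.99 to -0.61). Against tenocytes alone the log2 ratio was 0.49 (-0.30 to 1.21), which did not differ beyond counting error. Stromal lineage markers summed to 1505 CPM in the Schwann barcodes against 37438 CPM in stromal ones, and macrophage markers to 85.2 CPM against 12027 CPM in myeloid ones; their part in these counts was not tested. A Tlr4 UMI was present in 13.04% of thinned Schwann barcodes (interval 6.14 to 23.3). The thinned share was 25.9% in stromal barcodes, 13.3% in satellite cells and myoblasts and 4.15% in Xcr1 Clec9a dendritic cells.

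Counted per barcode, the number of receptors seen together differed between the myeloid classes. After thinning to 5000 UMIs, myeloid barcodes held a UMI of a mean of 1.504 of the 9 receptors, 17.0% held none and 16.7% held 3 or more. Lyve1 Folr2 macrophages had a mean of 1.69, monocytes 1.44, Gpnmb Fabp5 macrophages 1.24, Xcr1 Clec9a dendritic cells 0.65 and Cd209a Flt3 dendritic cells 0.59. Of Lyve1 Folr2 macrophages 20.7% held 3 or more, of monocytes 13.4% and of Gpnmb Fabp5 macrophages 7.31%. Stromal barcodes had a mean of 0.38, 66.5% held none and 0.12% held 3 or more. In myeloid barcodes with a Tlr2 UMI, 95.5% also had a Cd14 UMI, against 85.3% of those without one; in barcodes with a Tlr4 UMI the share was 90.9%, against 90.6%. Within Lyve1 Folr2 macrophages the shares for Tlr2 were 93.7% and 89.3%. For Tlr4 the order turned within the 2 largest classes, with 89.9% against 92.0% in Lyve1 Folr2 macrophages and 92.1% against 96.3% in other C1q macrophages.

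**Figure D5:**
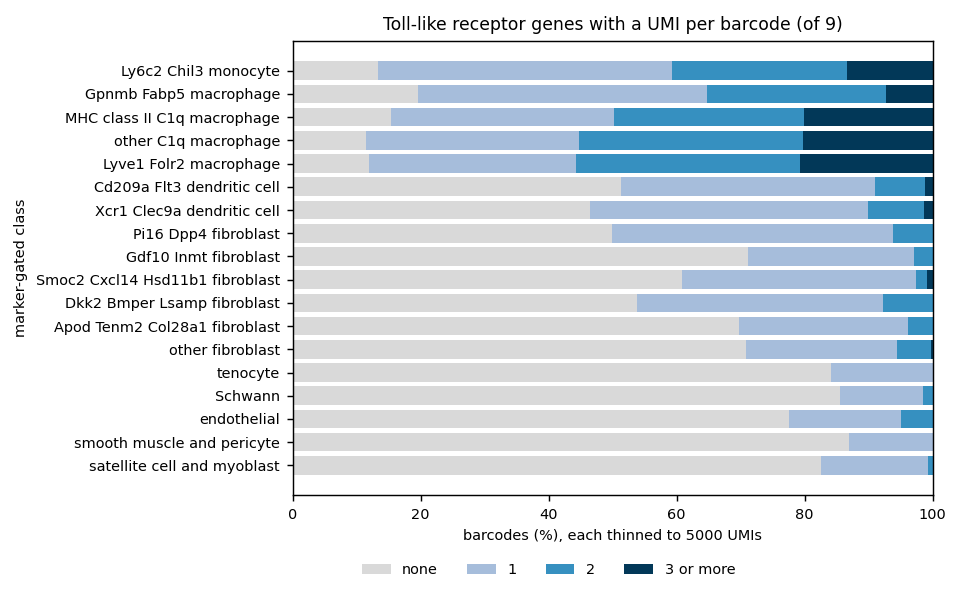
Percent of barcodes (x axis) in each gated class (y axis) with a UMI of none, 1, 2, or 3 or more of the 9 Toll-like receptor genes, each barcode thinned to 5000 UMIs. Macrophage classes and monocytes hold most of the barcodes with 3 or more, for example 20.7% in Lyve1 Folr2 macrophages, and most non-myeloid barcodes hold none outside Pi16 Dpp4 fibroblasts (49.9%).

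Of the rest of the pathway, 49 listed genes, 20 were at least 4-fold higher in myeloid and 4 in stromal barcodes (backgrounds 11.4% and 18.7%), with a median log2 ratio of 1.26. Among coreceptors, Ly96, which forms the lipopolysaccharide pocket with Tlr4, stood at 63.1 CPM in myeloid and 10.2 CPM in stromal barcodes. Lbp, the secreted protein that loads lipopolysaccharide onto Cd14, was the reverse, with 3.02 and 381 CPM. Cd36, a scavenger receptor that serves Tlr2, was highest in the 40 endothelial barcodes at 1535 CPM (interval 1411 to 1668), and stood at 1143 CPM in Gpnmb Fabp5 macrophages, 644 CPM in Lyve1 Folr2 macrophages and 184 CPM in monocytes. Unc93b1, which carries the endosomal receptors to their compartment, stood at 575 CPM in Lyve1 Folr2 macrophages, 563 CPM in MHC class II C1q macrophages, 250 CPM in monocytes and 29.7 CPM in stromal barcodes.

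Of the 6 adaptors, 2 were at least 4-fold higher in myeloid barcodes, where 11.4% of all genes were, and 1 in stromal barcodes, a share near the 18.7% of all genes in that direction. Pik3ap1, which links the receptors to phosphoinositide 3-kinase, stood at 185 CPM in myeloid and 2.34 CPM in stromal barcodes, and Sarm1 at 0.21 and 0.99 CPM from 16 and 25 UMIs. Myd88, used by all the listed receptors but Tlr3, stood at 41.0 CPM in myeloid and 35.2 CPM in stromal barcodes and at 4.73 CPM in Schwann barcodes, from 3 UMIs. Ticam2, which joins Tlr4 to Ticam1, stood at 14.0 and 0.44 CPM. Irak2, at 138 and 7.21 CPM, was the only 1 of 9 kinases and ubiquitin ligases at least 4-fold higher in myeloid barcodes, a share near the background; Irak1 stood at 42.0 and 45.9 CPM. Irf5, at 114 and 3.33 CPM, was the only 1 of 5 transcription factors at least 4-fold higher in myeloid barcodes, a count too small to set apart from the background of 11.4%, while Irf3 stood at 14.4 and 15.5 CPM, Rela at 55.7 and 40.1 CPM and Nfkb1 at 739 and 1116 CPM. Of the 7 inhibitors, Irak3 alone, a share below the background of 18.7%, was at least 4-fold higher in stromal barcodes, with 199 against 30.6 CPM and 451 CPM in Pi16 Dpp4 fibroblasts, the class with the most Tlr4. Sigirr and Tnfaip3, 2 of the 7, were at least 4-fold higher in myeloid barcodes, where 11.4% of all genes were.

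Of the 8 response genes, 5 were at least 4-fold higher in myeloid barcodes, where 11.4% of all genes were, and 1 in stromal barcodes, a share below the 18.7% of all genes in that direction. Tnf (514 and 6.98 CPM in myeloid and stromal barcodes), Il1b (1001 and 6.42 CPM), Cxcl2, Ccl4 and Ifnb1 were the former. Il6, a cytokine gene, stood at 33.5 and 428 CPM. Between monocytes and Lyve1 Folr2 macrophages, 3 of the 8 (Il1b, Il6 and Ptgs2) were at least 2-fold higher in monocytes, where 8.36% of all genes were, and Tnf in the macrophages, a share below the 29.6% of all genes in that direction. Tnf stood at 186 CPM in monocytes and 524 CPM in Lyve1 Folr2 macrophages, and Il1b at 4694 and 52.9 CPM. Ptgs2, which makes prostaglandins, stood at 1248 CPM in Pi16 Dpp4 fibroblasts, 876 CPM in monocytes and 25.4 CPM in Lyve1 Folr2 macrophages. Tissue dissociation can itself switch on such genes, and whether it did here was not tested.

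Over the 19 classes and among 12702 genes with at least 200 UMIs, the genes whose log2(CPM + 1) followed a receptor most closely were ranked by Pearson correlation, as a description whose points share 1 library and include the 19 Ccr7 Fscn1 cells as a class. Lyz2, the lysozyme gene of macrophages, followed both Cd14 (r = 0.98) and Tlr13 (r = 0.99). Tlr1 was closest to F630028O10Rik (0.99) and Ticam2 (0.98), Tlr2 to Cyp4f18 (0.98) and Dok2 (0.98), Tlr7 to C3ar1 (0.97), Tlr9 to Anxa11os (0.96), Tlr5 to Gm30489 (0.95) and Tlr6 to Osm (0.93). Tlr4 had its closest gene in Cd164 (0.91) and Tlr3 in Stat2 (0.80).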

How the data were processed

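The deposited matrix holds UMI counts per gene and barcode of the GFP+ library, which the authors made with Cell Ranger and did not normalize (7.1.0 per the labels, 8.0.1 per the matrix header). The labels name mm10 and the methods also name GRCm39; coordinates here are RefSeq GRCm38.p6. Reads were counted with default settings per the methods. The background RNA and doublet removal that the methods describe is not in these whole-number counts. Sequence overlap of transcripts was read from GENCODE. Empty droplets had been removed by the authors, and neither doublet nor free RNA removal was applied here beyond the exclusion of mixed barcodes.

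Barcodes with at least 5000 UMIs and under 10% mitochondrial UMIs were gated by marker UMIs per 10000 UMIs, for example at least 12 over at least 4 of 8 genes for the myeloid and 60 over at least 4 of 8 genes for the stromal lineage. Counts were summed per class, and CPM was given with exact Poisson, ratios with exact conditional and shares with Clopper-Pearson 95% intervals. Shares were taken after each barcode was thinned to 5000 UMIs. A count of 0 was given the limit of 3 counts. Intervals cover counting error only. The members, gene lists, gates and tests were chosen with earlier results of these data known. Gate levels were set after the distribution of marker UMIs had been seen. Every one of the 10 members was named, with up to 3 genes of the highest correlation per member. Python 3.11.15, scipy 1.17.1 and scanpy 1.11.5 (Scrublet) were used. The interval was checked on simulated sums drawn with counting error alone. That check does not cover spread between barcodes. Alternatives were a minimum of 10000 UMIs, stricter gates, the mean over barcodes, Scrublet scores, mitochondrial limits and denominators, and no thinning. The range over single myeloid markers is not reported here.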

Additional observations from a re-analysis of the deposited data

How the results depend on the processing

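The number of genes past 4-fold in myeloid over stromal barcodes was 8 of 10 under each of the 8 alternatives planned for it, a fold of 2 and no minimum of UMIs included. Of 90 recomputed myeloid to stromal log2 ratios, 79 stayed inside the interval for counting error, 10 moved outside it and 1 changed sign: without the 217 Xcr1 Clec9a dendritic cells, a setting added after the data were seen, Tlr3 was -0.42, because that class holds 570 of its 1063 myeloid UMIs, and the count past 4-fold was still 8. With at least 10000 UMIs per barcode Cd14 was 6.88, and with a mean over barcodes Cd14 was 6.05, Tlr4 -0.49 and Tlr3 0.40. With under 5% mitochondrial UMIs Tlr4 was -0.77. With raised gates for every lineage, which admit more mixed barcodes (1734 stromal against 1671) and were added after the data were seen, Cd14 was 5.69, Tlr2 4.15 and Tlr7 5.51. In stromal barcodes without myeloid marker UMIs, also added after the data were seen, Cd14 was 7.80 and Tlr7 8.76. The choice of those barcodes made a rise likely beforehand. Ratios inside the lineages (monocyte to Lyve1 Folr2 macrophage for 7 genes, Tlr3 between dendritic classes and Tlr4 between fibroblasts and tenocytes) kept their sign under the 7 alternatives run for them; of 49 monocyte ratios, 6 moved outside their interval, all of Cd14 (1.39 to 1.53) or Tlr2 (1.52), and Tlr3 between dendritic classes was 6.59 under stricter gates and 4.97 under raised gates, and the cause was not tested. Depth limits Schwann, endothelial and smooth muscle classes, where 3 counts are worth 4.73 to 8.21 CPM. No paired analysis was possible because there is 1 library.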

Other observations

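Tlr11 and Tlr12, which read profilin of parasites and are not among the 10 genes, had their highest level in the same dendritic class as Tlr3. Tlr11 stood at 16.7 CPM (interval 13.01 to 21.2) in Xcr1 Clec9a dendritic cells from 68 UMIs, at 2.45 CPM in Cd209a Flt3 dendritic cells from 6 UMIs, at 1.199 CPM in Lyve1 Folr2 macrophages, and at 0 UMIs in monocytes. Tlr12 stood at 3.20 CPM (1.71 to 5.48) in Xcr1 Clec9a dendritic cells from 13 UMIs and had at most 9 UMIs in any other class; its interval overlapped that of Cd209a Flt3 dendritic cells (2 UMIs).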
